A study of Homo sapiens with 4 samples.

Results

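The genes described here are 7 genes that mark the pacemaker tissue and the venous inflow of the developing heart: the channel genes HCN4 and HCN2, the transcription factor genes SHOX2, ISL1, TBX3 and TBX18, and VSNL1. They are 7 of the 60234 Ensembl genes of the count table, found by matching each identifier to its symbol, and every library held 5 reads or more of each. They were chosen by symbol, as known node and venous pole genes, with their CPM in the 4 libraries already known, so their levels and differences are given as a description and none of them is a test. RNA was sequenced from derivatives of a human embryonic stem cell line, NKX2.5:GFP, in which 1 NKX2-5 allele carries eGFP. The cells were driven towards the cardiac lineage as spin embryoid bodies and received 1 µM retinoic acid (RA), or the solvent DMSO as control (CTR), from day 4 to day 7. At day 31 each culture was sorted by fluorescence, which gave GFP-positive (GFP+) and GFP-negative (GFP-) cells of each treatment, with 1 library for each of the 4 populations. All cells came from this single line and carry the reporter, and GFP follows the activity of the NKX2-5 locus rather than a pacemaker gene. Since RA and CTR cells came from different cultures, the effect of RA and that of the culture cannot be told apart.

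The sinus node sets the heartbeat. Its cells carry the funny current through HCN channels, which open when the membrane is hyperpolarized and drive the next depolarization, and it forms from the sinus venosus at the venous pole of the heart tube, which lies in a region where RA is made. SHOX2, ISL1, TBX3 and TBX18 are transcription factors known from mouse to build the node and its inflow and to hold back the working myocardial programme, and the part of the node known as its head lacks NKX2-5 in the embryo. TBX18, TBX3, ISL1 and SHOX2 each act in other tissues too, among them epicardium, neurons, limb and face.

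The deposited read counts summed to between 4371101 and 28643091 per library, and the CTR GFP- library was the smallest. There 3 reads equalled 0.639 CPM, the read count per 1000000 reads of a library, against 0.105 to 0.117 CPM in the other libraries. Levels are CPM scaled with TMM factors, which correct for libraries dominated by a few genes. Differences are of log2(CPM + 1), which understates the change of genes with few reads, and a gene was counted as higher or lower where this difference reached 1, or 2-fold, with at least 10 CPM in either library. With 1 library per condition there were no replicates and no test was made: ranges in parentheses are 95% intervals for counting error only. The pairs compared share libraries, so that their differences are not independent. NKX2-5, the gene of the reporter, was at 593 CPM in CTR GFP+ cells and 14.5 CPM in CTR GFP- cells, and at 463 and 9.74 CPM in the RA fractions. The cardiomyocyte list of 10 markers, which are the defining genes of the sorted cell type, summed to 18018 CPM in RA GFP+ and 20500 CPM in CTR GFP+ cells against 531 and 985 CPM in the GFP- cells, and all 10 had reads in every library.

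The start regions of SHOX2, ISL1 and VSNL1, the members that were higher with RA in GFP+ cells, are given first, followed by that of TBX18, which was lower with RA in both fractions. Each is the 250 bases before a gene start in RefSeq, build GRCh38.p14, read 5′ to 3′ on the strand of the gene, and VSNL1 has 2 annotated starts. The table used held such windows for 6 of the 7 members, and TBX3 had no entry. Capitals mark the letters AAGTG, the core read by NK2 factors such as NKX2-5, the letters AGATAA, read by GATA factors, and the core promoter elements spelled TATAAA and CCAAT. Each was searched for on both strands.
SHOX2, chr3:158106164-158106413, - strand: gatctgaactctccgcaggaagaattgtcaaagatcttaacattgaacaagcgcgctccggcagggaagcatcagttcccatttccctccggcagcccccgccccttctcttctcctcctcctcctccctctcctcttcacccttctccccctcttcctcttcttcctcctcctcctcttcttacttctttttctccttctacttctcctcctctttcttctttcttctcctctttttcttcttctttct
ISL1, chr5:51383198-51383447, + strand: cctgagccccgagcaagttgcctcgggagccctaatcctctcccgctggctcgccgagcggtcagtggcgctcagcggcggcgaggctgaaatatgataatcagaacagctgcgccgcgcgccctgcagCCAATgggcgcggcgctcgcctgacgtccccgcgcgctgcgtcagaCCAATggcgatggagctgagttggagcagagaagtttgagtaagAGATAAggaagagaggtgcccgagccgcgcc
VSNL1, chr2:17539722-17539971, + strand: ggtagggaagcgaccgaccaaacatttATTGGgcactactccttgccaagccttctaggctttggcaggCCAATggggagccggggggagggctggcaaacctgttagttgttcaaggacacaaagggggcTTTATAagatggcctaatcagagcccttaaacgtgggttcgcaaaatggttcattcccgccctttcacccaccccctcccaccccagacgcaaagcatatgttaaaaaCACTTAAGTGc
VSNL1, chr2:17540446-17540695, + strand: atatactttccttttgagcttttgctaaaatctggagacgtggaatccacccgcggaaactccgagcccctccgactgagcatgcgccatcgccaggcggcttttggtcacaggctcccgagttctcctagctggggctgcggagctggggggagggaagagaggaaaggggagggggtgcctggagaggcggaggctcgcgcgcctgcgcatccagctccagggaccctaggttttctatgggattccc
TBX18, chr6:84764599-84764848, - strand: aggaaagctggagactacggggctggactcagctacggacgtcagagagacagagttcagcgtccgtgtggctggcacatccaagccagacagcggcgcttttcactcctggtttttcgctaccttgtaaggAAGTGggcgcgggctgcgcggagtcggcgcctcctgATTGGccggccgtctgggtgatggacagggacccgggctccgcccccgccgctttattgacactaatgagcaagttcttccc
The SHOX2 window held none of these motifs. It consisted of C or T at 79.2% of its bases, a share that only 0.0854% of the 35116 windows of the table reached. The ISL1 window held a GATA motif 31 bases before the start and CCAAT elements 75 and 121 bases before it. In the first VSNL1 window, NK2 motifs on both strands stood side by side 11 and 6 bases before the start, with a TATAAA element 119 bases and CCAAT elements 181 and 223 bases before it, whereas the second window held none of these. TBX18 had an NK2 motif 118 bases and a CCAAT element 82 bases before the start. Of all windows, 37.6% held the NK2 motif, 9.17% the GATA motif, 10.7% the TATAAA element and 32.0% the CCAAT element. A T-box motif (AGGTGTNA, in 2.15% of all windows) was in none of the 7 member windows, and a motif of nuclear receptors (AGGTCA, in 12.1%) was in that of HCN2 alone. A match says only that these letters are in the window. Protein binding and chromatin were not measured.

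HCN4, the main funny channel of the sinus node, had the highest level per kb of exon of the 7 in both GFP+ libraries. It was at 530.0 CPM (521 to 539) in RA GFP+, 457 CPM (449 to 465) in CTR GFP+, 31.3 CPM (29.2 to 33.5) in RA GFP- and 67.7 CPM (60.5 to 75.6) in CTR GFP- cells. Both GFP+ libraries therefore stood above both GFP- ones. With RA, HCN4 differed little in GFP+ cells (log2 difference 0.21, ratio 1.16, 1.13 to 1.19) and was lower in GFP- cells (log2 difference −1.09, ratio 0.462, 0.405 to 0.528). The ratio of GFP+ over GFP- cells was 6.75 (6.04 to 7.56) in CTR and 16.9 (15.8 to 18.2) with RA. In the GFP- cells, 4 of the 10 cardiomyocyte markers were also at least 2-fold lower with RA and their sum was 985 CPM in CTR and 531 CPM with RA. The part of these cells in the HCN4 difference was not tested. In bulk RNA, fewer cells of a type and less RNA per cell cannot be told apart.

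HCN2, a faster channel of the same family, stayed below 10 CPM in all libraries. Its levels were 6.51 CPM (5.58 to 7.55) in RA GFP+, 9.56 CPM (8.46 to 10.8) in CTR GFP+, 3.70 CPM (3.00 to 4.53) in RA GFP- and 1.28 CPM (0.469 to 2.78) in CTR GFP- cells, the last from 6 reads. HCN2 was thus highest in CTR GFP+ cells and lowest in CTR GFP- cells. Its RA difference was −0.49 (ratio 0.680, 0.559 to 0.826) in GFP+ cells and 1.05 (ratio 2.90, 1.28 to 8.09) in GFP- cells, of opposite sign to the HCN4 differences in both fractions.

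**Figure D1:**
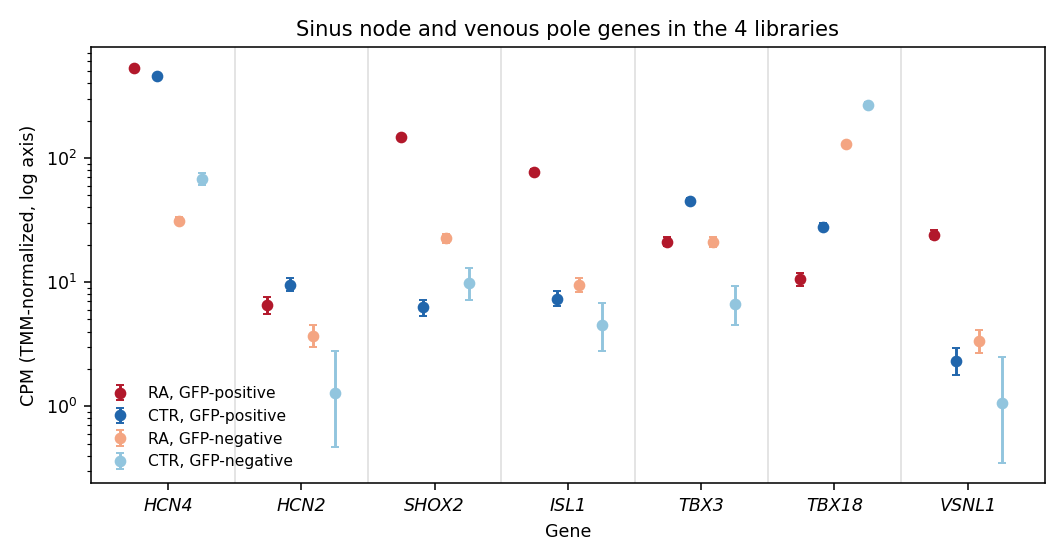
Level of each gene in the 4 libraries, as CPM on a log axis, with 1 library per point and bars for the exact Poisson 95% interval of the read count. SHOX2, ISL1 and VSNL1 stand apart in RA GFP+ cells, HCN4 is high in both GFP+ libraries and TBX18 in both GFP- libraries.

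SHOX2, a homeobox factor that keeps the node free of the working myocardial programme, had the highest RA ratio of the members in GFP+ cells. It was at 147 CPM (142 to 152) in RA GFP+, 6.25 CPM (5.37 to 7.23) in CTR GFP+, 22.5 CPM (20.7 to 24.4) in RA GFP- and 9.80 CPM (7.17 to 13.1) in CTR GFP- cells. RA GFP+ cells were far above the other 3 libraries, and without RA SHOX2 was lower in GFP+ than in GFP- cells (ratio 0.638, 0.459 to 0.902). In GFP+ cells SHOX2 was 23.5-fold (20.3 to 27.5) higher with RA, a log2 difference of 4.35 and 3rd from the top among 11186 genes at 10 CPM or more. In GFP- cells it was 2.30-fold (1.70 to 3.18) higher, a log2 difference of 1.12. With RA, GFP+ cells held 6.53-fold (5.98 to 7.13) more than GFP- cells, so that the order of the fractions was the opposite of that in CTR. RSRC1, a gene on the opposite strand that starts 565 bp from the start of SHOX2, shares 156 exon bases with it, or 3.11% of those of SHOX2. RSRC1 was at 25.5, 19.7, 17.2 and 13.0 CPM in the same order of libraries, and its RA ratio in GFP+ cells was 1.29 (1.16 to 1.45).

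ISL1, a LIM homeobox factor of cardiac progenitors that is kept on in the sinus node, was at 77.7 CPM (74.4 to 81.1) in RA GFP+, 7.36 CPM (6.40 to 8.43) in CTR GFP+, 9.55 CPM (8.39 to 10.8) in RA GFP- and 4.47 CPM (2.77 to 6.84) in CTR GFP- cells. As for SHOX2, RA GFP+ cells alone were high. ISL1 was 10.5-fold (9.15 to 12.2) higher with RA in GFP+ cells, a log2 difference of 3.23, and 2.13-fold (1.37 to 3.51) higher in GFP- cells, a log2 difference of 0.95. The long non-coding RNA ISL1-DT starts 116 bp from ISL1, runs the other way and shares no exon base with it. It was at 27.4 CPM in RA GFP+, 5.34 CPM in CTR GFP+, 2.49 CPM in RA GFP- and 1.28 CPM in CTR GFP- cells. ISL1-DT was thus also highest in RA GFP+ cells, with a ratio over CTR of 5.14 (4.31 to 6.16). Of 8 genes of neuron types that express ISL1, PHOX2A was higher with RA in GFP+ cells (62.5 against 9.04 CPM). The list summed to 65.5, 10.8, 13.5 and 28.8 CPM in RA GFP+, CTR GFP+, RA GFP- and CTR GFP- cells, with SLC18A3 at 0 reads in CTR GFP+ cells and MNX1 at 0 in CTR GFP- cells. PHOX2A alone held 62.5 and 9.04 CPM of the sums in RA and CTR GFP+ cells. Of the 8, 2 had an RA difference below 0 in GFP+ cells and 6 in GFP- cells. The part of such neurons in the ISL1 difference was not tested.

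TBX3, a repressor that imposes the pacemaker programme on the node and conduction system, moved the other way in the GFP+ cells. It was at 21.2 CPM (19.5 to 23.0) in RA GFP+, 45.4 CPM (42.9 to 47.9) in CTR GFP+, 21.1 CPM (19.3 to 22.9) in RA GFP- and 6.60 CPM (4.49 to 9.37) in CTR GFP- cells. The level was highest in CTR GFP+ cells and nearly the same in both RA fractions. In GFP+ cells TBX3 was 2.14-fold (1.94 to 2.37) lower with RA (log2 difference −1.06), and in GFP- cells 3.19-fold (2.22 to 4.75) higher (log2 difference 1.54). TBX3 was 6.87-fold (4.82 to 10.2) higher in GFP+ than in GFP- cells of CTR, while the ratio with RA was 1.00 (0.891 to 1.13). In GFP+ cells the lower value of TBX3 lay close to the 2-fold limit, and with a pseudocount of 5 CPM the log2 difference was −0.94.

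TBX18, which marks the sinus venosus and forms the head of the node but is also a gene of the epicardium, had the highest level per kb of exon of the 7 in both GFP- libraries. It was at 10.5 CPM (9.35 to 11.9) in RA GFP+, 28.0 CPM (26.1 to 30.0) in CTR GFP+, 129 CPM (125 to 133) in RA GFP- and 269 CPM (254 to 284) in CTR GFP- cells. Both GFP- libraries stood above both GFP+ ones, and CTR above RA in each fraction. TBX18 was 2.65-fold (2.31 to 3.05) lower with RA in GFP+ cells (log2 difference −1.33) and 2.08-fold (1.95 to 2.22) lower in GFP- cells (log2 difference −1.05). It was 9.61-fold (8.79 to 10.5) higher in GFP- than in GFP+ cells of CTR and 12.2-fold (10.8 to 13.9) higher with RA. The 8 epicardial markers, all with reads in every library, summed to 68.7 CPM in RA GFP+, 91.9 CPM in CTR GFP+, 713 CPM in RA GFP- and 1780 CPM in CTR GFP- cells, the same order of libraries as TBX18. ITLN1 alone held 372 and 1241 CPM of the sums in RA and CTR GFP- cells, and the other 7 summed to 341 and 539 CPM there. All 8 were at least 2-fold lower in GFP+ than in GFP- cells under both treatments, but TCF21 with RA (−1.04) kept this in 4 of 8 alternative settings. Of the 8, 4 reached 10 CPM in either GFP+ library, of which WT1 was lower with RA (2.88 against 11.6 CPM) and none higher. Below that limit, TCF21 had 7.78 CPM in RA GFP+ against 1.47 CPM in CTR GFP+ cells (log2 difference 1.83) and UPK1B at 6.99 and 2.20 CPM (1.32). In GFP- cells all 8 reached 10 CPM in either library, and ITLN1 was lower with RA and none higher. The part of epicardial cells in the TBX18 values was not tested.

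VSNL1, a neuronal calcium sensor of the visinin family that also marks the sinus node, was at 24.1 CPM (22.3 to 26.1) in RA GFP+, 2.30 CPM (1.78 to 2.93) in CTR GFP+, 3.35 CPM (2.68 to 4.14) in RA GFP- and 1.06 CPM (0.346 to 2.48) in CTR GFP- cells, the last from 5 reads. RA GFP+ cells alone passed 10 CPM. VSNL1 was 10.5-fold (8.12 to 13.7) higher with RA in GFP+ cells, a log2 difference of 2.93, and 3.15-fold (1.30 to 9.94) higher in GFP- cells, a log2 difference of 1.08. In CTR the ratio of GFP+ over GFP- cells was 2.16 with an interval that held 1 (0.882 to 6.88), and with RA it was 7.20 (5.74 to 9.12).

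**Figure D2:**
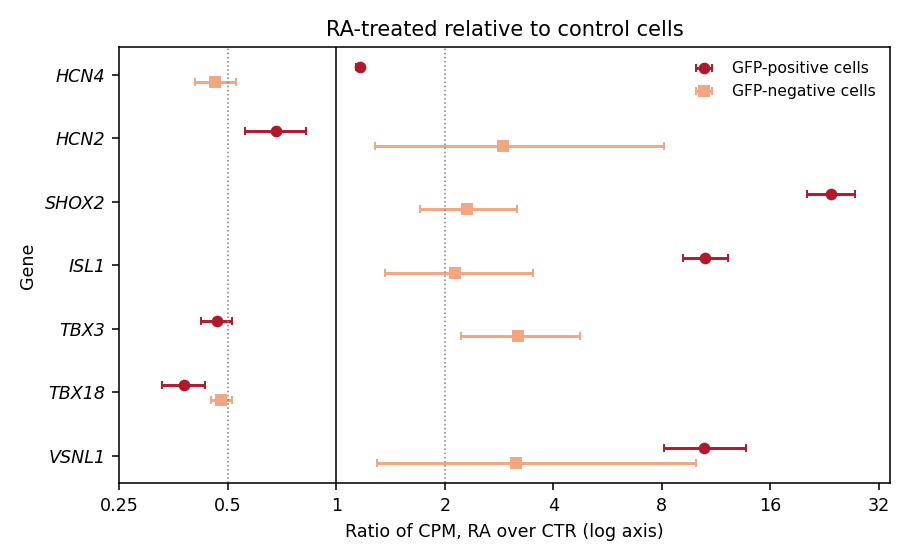
Ratio of CPM in RA over CTR cells for each gene, on a log axis, in GFP+ and GFP- cells, with bars for the Clopper-Pearson 95% interval of counting error and dotted lines at 2-fold. SHOX2, ISL1 and VSNL1 lie at 10.5-fold or more in GFP+ cells, TBX18 lies below 1 in both fractions, and HCN4, HCN2 and TBX3 lie on opposite sides of 1 in the 2 fractions.

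In GFP+ cells, 6 of the 7 members had at least 10 CPM in either library. Of these, 3 were higher with RA (SHOX2, ISL1 and VSNL1), where 4.14% of all 11186 genes were, and 2 were lower (TBX3 and TBX18), where 1.67% were. TBX3 fell short of 2-fold with a pseudocount of 5 CPM (−0.94). These shares are a background and not a test, since the members were chosen with the contrast known. The median log2 difference over the 7 members was 0.21, that of HCN4. Over the 6 at 10 CPM or more it was 1.57, against 0.02 over all genes at that limit. SHOX2, ISL1 and VSNL1 passed the limit only through RA GFP+ cells, where they were high, so the limit itself raised this median. In GFP- cells, 4 of the 7 members had at least 10 CPM in either library. SHOX2 and TBX3 were higher with RA (4.95% of 11606 genes) and HCN4 and TBX18 lower (3.18%). SHOX2 fell short of 2-fold there with a pseudocount of 5 CPM (0.90), after thinning to equal depth (0.76) and, by a small margin, by library size alone (1.00). The median of the 7 members was 1.05, but 0.47 with a pseudocount of 5 CPM and 0.76 after thinning. Over the 4 members at 10 CPM or more it was 0.04, against 0.08 over all genes at that limit. SHOX2 and TBX3 passed that limit only through RA GFP- cells, where they were higher. With a limit of 1 CPM (8.69% of 18642 genes higher) or none (2.69% of 60234 genes higher), HCN2 and VSNL1 were counted as higher too and made 4 members, each of the pair resting on 6 reads or fewer in CTR GFP- cells.

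The RA difference in GFP+ cells minus that in GFP- cells was 3.23 for SHOX2, 2.29 for ISL1, 1.85 for VSNL1 and 1.30 for HCN4, on the log2(CPM + 1) scale. It was −0.27 for TBX18, −1.54 for HCN2 and −2.60 for TBX3. SHOX2, ISL1 and VSNL1 were thus above CTR in both fractions, and further above it in GFP+ cells, whereas the genes at the other end were lower with RA in GFP+ cells.

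The sort did not part all members as it did the cardiomyocyte markers. In CTR, 3 members reached 10 CPM in either fraction: HCN4 and TBX3 were higher in GFP+ cells (11.9% of 11806 genes) and TBX18 lower (13.3%). With RA, 6 members did: HCN4, ISL1, SHOX2 and VSNL1 were higher in GFP+ cells (9.97% of 11850 genes) and TBX18 lower (12.4%). The median log2 difference over the 7 members was 0.68 in CTR and 2.53 with RA. Over the members at 10 CPM or more it was 2.61 (3 members) and 2.59 (6 members), against 0.08 and 0.02 over all genes at that limit. These medians rest on different members and cannot be compared with each other. TBX3 in CTR, and ISL1 and VSNL1 with RA, passed the limit only through GFP+ cells, where they were high. The GFP- level of the cardiomyocyte markers was 1.51% to 22.2% of their GFP+ level in CTR and 0.715% to 9.13% with RA. TNNC1 set the upper end of both ranges, and the next marker, MYL7, was at 10.6% in CTR and 5.90% with RA. For HCN4 the value was 14.8% in CTR and 5.90% with RA, inside both ranges. In CTR, HCN2 (13.4%) and TBX3 (14.6%) were inside the range, and ISL1 (60.7%), VSNL1 (46.2%), SHOX2 (157%) and TBX18 (961%) above it. Without TNNC1, HCN4, HCN2 and TBX3 lay above the CTR range too, and HCN4 was level with the upper end of the RA range. With RA all members other than HCN4 were above the range, from 12.3% for ISL1, 13.9% for VSNL1 and 15.3% for SHOX2 to 56.9% for HCN2, 99.6% for TBX3 and 1223% for TBX18.

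**Figure D3:**
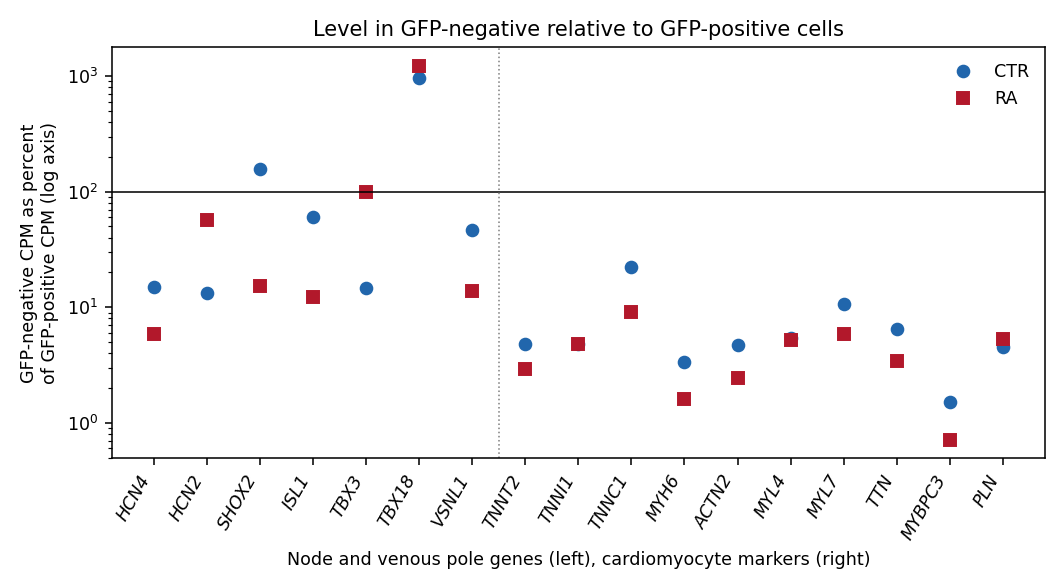
GFP- CPM as a percent of GFP+ CPM, on a log axis, for the 7 genes and, right of the dotted line, the 10 cardiomyocyte markers, in CTR and RA cells. The markers lie between 0.715% and 22.2%, whereas TBX18 lies above 100% under both treatments and SHOX2 only in CTR.

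Levels of different genes were compared per length, as CPM per kb of annotated exon. In RA GFP+ cells the order was HCN4 (76.6 CPM per kb), SHOX2 (29.3), ISL1 (27.6), VSNL1 (6.36), TBX3 (3.55), HCN2 (1.90) and TBX18 (1.22), and SHOX2 and ISL1 alone were neighbours with overlapping intervals. In CTR GFP+ cells it was HCN4 (66.0), TBX3 (7.61), TBX18 (3.23), HCN2 (2.80), ISL1 (2.61), SHOX2 (1.25) and VSNL1 (0.608 CPM per kb), and the intervals of TBX18 and HCN2, and of HCN2 and ISL1, overlapped. HCN4 led in both GFP+ libraries, and SHOX2 and VSNL1, which came last in CTR, came before TBX3 and TBX18 with RA. In RA GFP- cells TBX18 (14.9 CPM per kb) led, followed by HCN4 (4.52) and SHOX2 (4.50), TBX3 (3.54) and ISL1 (3.39), and HCN2 (1.08) and VSNL1 (0.884), and the members of each of these 3 pairs had overlapping intervals. In CTR GFP- cells TBX18 (31.03 CPM per kb) and HCN4 (9.78) stood above the rest. SHOX2 (1.95), ISL1 (1.59), TBX3 (1.11), HCN2 (0.374) and VSNL1 (0.281 CPM per kb) each overlapped the next in that library. With the length of the canonical transcript alone, HCN2 came after ISL1 in CTR GFP+ cells and after VSNL1 in both GFP- libraries, and HCN4 after SHOX2 in RA GFP- cells.

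HCN3, a further channel of the HCN family, was at 5.42 CPM in RA GFP+, 4.82 CPM in CTR GFP+, 7.68 CPM in RA GFP- and 6.81 CPM in CTR GFP- cells, below 10 CPM throughout as HCN2 was. Per kb, HCN3 had 1.28 CPM per kb in RA GFP+ and 1.14 CPM per kb in CTR GFP+ cells, under HCN4 and HCN2 in both. HCN2, HCN3 and HCN4 all stayed under 2-fold with RA in GFP+ cells.

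Of the 17 T-box genes, 6 had at least 10 CPM in either GFP+ library. With RA, 3 of these were lower (TBX3, TBX18 and TBX20) and none higher, where 1.67% of all 11186 genes were lower and 4.14% higher. For the lists below, the shares over all genes are those given beside the members. TBX3 fell short of 2-fold with a pseudocount of 5 CPM (−0.94). The median over the 17, most of them under 10 CPM, was −0.27 and ranged from −0.67 to −0.07 over the 8 alternative settings. Just below 10 CPM, TBX1 was at 8.82 CPM in RA GFP+ against 0.454 CPM in CTR GFP+ cells, a log2 difference of 2.76 and the highest of the 17. TBX20, a factor of working and conducting myocardium, was at 90.4 CPM in RA GFP+, 291 CPM in CTR GFP+, 4.21 CPM in RA GFP- and 13.2 CPM in CTR GFP- cells, and its RA ratio was 0.311 (0.297 to 0.325) in GFP+ and 0.319 (0.231 to 0.443) in GFP- cells. TBX20 was thus lower with RA in both fractions, as TBX18 was. TBX2, the close relative of TBX3, had 175 CPM in RA GFP+, 218 CPM in CTR GFP+, 79.6 CPM in RA GFP- and 34.9 CPM in CTR GFP- cells, with differences of −0.32 in GFP+ and 1.17 in GFP- cells. TBX5, which acts with NKX2-5 in inflow myocardium, differed by 0.32 in GFP+ and 0.26 in GFP- cells and was higher in GFP+ cells under both treatments. In GFP- cells 7 T-box genes reached 10 CPM in either library, of which TBX1, TBX2 and TBX3 were higher with RA and TBX18 and TBX20 lower. TBX20 (−1.45) fell short of 2-fold there in 1 of 8 alternative settings. Among 7 paralogs of SHOX2, ISL1 and VSNL1, 3 reached 10 CPM (HPCAL1, NCALD and NCS1), and of these 3 none differed by 2-fold with RA in either fraction. ISL2, the paralog of ISL1, had 0 reads in both CTR libraries, 19 reads in RA GFP+ cells and 63 reads in RA GFP- cells, below 10 CPM in each. SHOX had 0 reads in both CTR libraries and in RA GFP- cells.

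The list of 19 genes that pacemaker cells use besides the HCN channels covered calcium channels, calcium release and uptake, potassium channels, receptors and junctions. In GFP+ cells 15 had at least 10 CPM in either library, of which CACNA1D, CACNA2D2 and KCNJ3 were higher with RA and none lower, and the median over the 19 was 0.19. CACNA2D2 (1.09) fell short of 2-fold in 2 of 8 alternative settings. CACNA1D, the L-type calcium channel of the node, was at 117 CPM in RA GFP+, 41.7 CPM in CTR GFP+, 4.33 CPM in RA GFP- and 4.26 CPM in CTR GFP- cells, a ratio of 2.80 (2.62 to 2.99) in GFP+ and 1.02 (0.627 to 1.73) in GFP- cells. CACNA1G, the T-type channel, was at 168 and 158 CPM in RA and CTR GFP+ cells and 32.7 and 33.6 CPM in the GFP- cells. KCNJ3 and KCNJ5, the subunits of the acetylcholine-gated potassium channel, differed in sign in GFP+ cells (1.41 and −0.79), and CHRM2, the receptor that opens it, differed by 0.82. In GFP- cells 13 had at least 10 CPM in either library, of which BVES was higher with RA and CNTN2 and RYR2 lower, and the median over the 19 was −0.30. Between the fractions of CTR, 16 of the 19 had at least 10 CPM in either library and 12 were higher in GFP+ cells (11.9% of 11806 genes). With RA, 15 did and 12 were higher in GFP+ cells (9.97% of 11850 genes). The medians over the 19 were 2.15 in CTR and 2.33 with RA. CNTN2 was lower in GFP+ cells of CTR (1.01 against 22.4 CPM), where 5 of the 19 had a log2 difference below 0, against 0 of the 19 with RA.

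The 10 genes of venous pole progenitors and their signals had a median RA difference of 1.35 in GFP+ cells, where 8 had at least 10 CPM in either library. ALDH1A2, BMP4, NR2F2 and OSR1 were higher and none lower. BMP4, a growth factor of the second heart field, was at 198 CPM in RA GFP+, 12.4 CPM in CTR GFP+, 102 CPM in RA GFP- and 93.3 CPM in CTR GFP- cells, a ratio of 15.95 (14.3 to 17.8) in GFP+ and 1.10 (0.992 to 1.22) in GFP- cells. OSR1, a factor of the posterior second heart field, was at 104 CPM in RA GFP+, 15.5 CPM in CTR GFP+, 62.5 CPM in RA GFP- and 18.5 CPM in CTR GFP- cells, and was higher with RA in both fractions. ALDH1A2, the enzyme that makes RA, was at 39.3 CPM in RA and 9.46 CPM in CTR GFP+ cells and at 103 and 148 CPM in the GFP- cells. In GFP- cells NR2F2 and OSR1 were higher and PDPN, a membrane protein of sinus venosus mesenchyme, lower, with a median of 0.51. PDPN (−1.01) fell short of 2-fold in 2 of 8 alternative settings. Of the 7 working myocardium genes analysed, 5 had at least 10 CPM in either GFP+ library, NPPA alone was higher with RA (131 against 37.8 CPM) and none lower, with a median of 0.42. NKX2-5, which SHOX2 opposes in the node, differed by −0.36 there.

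**Figure D4:**
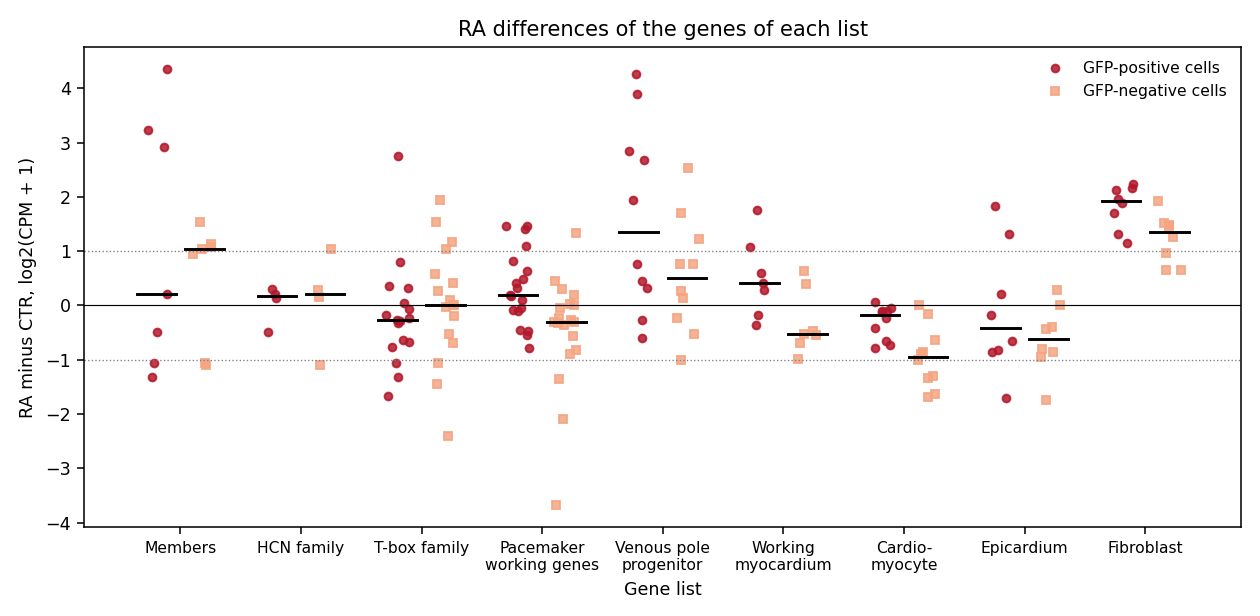
Difference of log2(CPM + 1) between RA and CTR cells for each gene of 9 lists, with GFP+ cells as circles and GFP- cells as squares, black bars for list medians and dotted lines at 2-fold. The members spread from −1.33 to 4.35 in GFP+ cells, the venous pole progenitor genes have a median of 1.35 and the fibroblast markers one of 1.93.

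Markers of other cells also moved with RA in GFP+ cells, where SHOX2, ISL1 and VSNL1 were higher. All 8 fibroblast markers were at least 2-fold higher there, and their sum was 15336 CPM in RA GFP+, 4018 CPM in CTR GFP+, 62342 CPM in RA GFP- and 32287 CPM in CTR GFP- cells. With RA, 7 of the 8 were lower in GFP+ than in GFP- cells, and PDGFRA was higher (295 against 138 CPM). SHOX2, ISL1 and VSNL1 were 6.53-fold, 8.13-fold and 7.20-fold higher in the GFP+ cells. Of 4 smooth muscle markers 3 were higher with RA in GFP+ cells, and the sum was 1057 CPM in RA GFP+, 476 CPM in CTR GFP+, 1387 CPM in RA GFP- and 731 CPM in CTR GFP- cells. Of these MYH11, the smooth muscle myosin heavy chain, was at 115 CPM in RA GFP+, 3.35 CPM in CTR GFP+, 28.4 CPM in RA GFP- and 23.2 CPM in CTR GFP- cells, a log2 difference of 4.73 with RA in GFP+ cells. With RA, MYH11 and CNN1 were higher in GFP+ than in GFP- cells and TAGLN was lower. The 7 limb and face mesenchyme markers, tissues where SHOX2, TBX3 and TBX18 are also known, summed to 41.2 CPM in RA GFP+ and 41.3 CPM in CTR GFP+ cells and to 264 and 86.0 CPM in the RA and CTR GFP- cells. In the GFP+ cells PRRX2 was higher with RA (10.2 against 2.97 CPM, in 7 of 8 alternative settings), PRRX1 was at 5.09 against 1.43 CPM, and MSX2 was at 12.7 against 25.9 CPM (log2 difference −0.98). In the GFP- cells 3 of these 7 were higher with RA, as SHOX2 and TBX3 were. The 7 endoderm markers analysed summed to 71.2 and 23.5 CPM in RA and CTR GFP+ cells, where AFP and EPCAM were higher with RA (EPCAM, at 1.06, in 5 of 8 alternative settings), and to 771 and 37.9 CPM in the GFP- cells, where 5 were higher with RA, and FOXA2 was at 0 reads in both CTR libraries. The 9 neuron markers analysed summed to 78.2 and 26.7 CPM in RA and CTR GFP+ cells, of which STMN2 alone held 42.5 and 1.26 CPM. In RA and CTR GFP- cells they summed to 122 and 98.2 CPM, of which STMN2 held 72.7 and 16.8 CPM. In these GFP- cells 7 of the 9 had a log2 difference below 0 and the median was −0.95, with STMN2 and SNAP25 higher with RA and DCX and SYT1 lower. The 4 endothelial markers summed to 15.9 and 16.9 CPM in RA and CTR GFP+ cells and to 257 and 276 CPM in the GFP- cells, where KDR alone held 142 and 204 CPM. KDR was the 1 marker with a log2 difference below 0 in each fraction. The medians over the 4 were 0.60 in GFP+ cells (0.24 to 0.84 over the 8 alternative settings) and 0.51 in GFP- cells (0.38 to 0.58). TIE1 was higher with RA in GFP- cells (41.0 against 18.1 CPM, in 7 of 8 alternative settings), where TEK was at 33.1 against 18.5 CPM. The part of these cells in the differences of the members was not tested.

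The genes whose levels over the 4 libraries were most like those of a member were sought among the 12407 genes that reached 10 CPM somewhere. Likeness is the Euclidean distance between log2(CPM + 1) values, each gene centred on its own mean over the 4 libraries, and is a description over 4 points. ISL1 and VSNL1 were close to each other (distance 0.28), and ADAMTS8 was close to both (0.24 to ISL1 and 0.29 to VSNL1). ADAMTS8, a secreted metalloprotease, was at 152 CPM in RA GFP+, 16.6 CPM in CTR GFP+, 21.6 CPM in RA GFP- and 8.52 CPM in CTR GFP- cells. The third gene for ISL1 was CCKAR, a cholecystokinin receptor (0.58), and for VSNL1 it was FABP5, a fatty acid binding protein (0.63). SHOX2 had no neighbour as near: SPOCK1, a proteoglycan, came first (0.74), followed by CCKAR (0.92). SPOCK1 was at 475 CPM in RA GFP+ and 30.8 CPM in CTR GFP+ cells and at 56.9 and 49.4 CPM in RA and CTR GFP- cells. HCN4 was nearest to PLPP7 (0.20), SRPK3 (0.25) and CASQ2 (0.26), of which SRPK3 is a muscle kinase and CASQ2 the calcium-binding protein of the cardiac sarcoplasmic reticulum. TBX3 was nearest to NXPH4 (0.33), S100A1 (0.35) and CHDH (0.38). TBX18 was nearest to ANXA3 (0.48), INMT (0.55) and WNT7B (0.56), all higher in the GFP- libraries. HCN2 was not compared, as it did not reach 10 CPM.

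In the GRCh37 annotation, all 7 members are protein-coding genes on separate chromosomes. SHOX2 (ENSG00000168779) lies on the minus strand at chr3:157813694-157824209, ISL1 (ENSG00000016082) on the plus strand at chr5:50679282-50690564, and TBX3 (ENSG00000135111) on the minus strand at chr12:115108060-115121980. TBX18 (ENSG00000112837) lies on the minus strand at chr6:85397069-85474316, HCN2 (ENSG00000099822) on the plus strand at chr19:589881-617159, HCN4 (ENSG00000138622) on the minus strand at chr15:73612200-73661299 and VSNL1 (ENSG00000163032) on the plus strand at chr2:17720393-17838285. Reads were counted without strand, so that reads of a member and of an antisense gene over it cannot be told apart where their exons meet. TBX3-AS1 shares 196 bases, or 3.29% of the TBX3 exon bases, and had 4 reads in RA GFP+, 15 in CTR GFP+ and 0 in both GFP- libraries. A pseudogene shares 148 bases, or 4.33%, with HCN2 and had 3 reads in RA GFP- cells and 0 in the other libraries. The antisense genes within TBX18 and HCN4 share no exon base with them and had 3 to 10 and 2 to 34 reads.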

How the data were processed

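RNA of 4 sorted populations was analysed, 1 library per condition, grouped by the sample titles. Per the labels and the methods of the study, the authors made strand-specific libraries with paired reads of 75 bp, mapped these with GSNAP 2014-12-06 against an adapted hg19 genome, kept uniquely aligned reads, processed them with SAMtools 0.1.18 and counted reads per Ensembl gene with HTSeq 0.6.1p1 without strand. The deposited values are these raw read counts, with no normalization. Unique alignment can undercount genes with near-identical copies, and the Ensembl release is not given in the sources used here.

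Here, counts were scaled to CPM with factors computed by TMM over all 4 libraries (0.951 in RA GFP+, 1.00 in CTR GFP+, 0.979 in RA GFP- and 1.07 in CTR GFP- cells; edgeR 4.0.16, R 4.3.3). Differences are of log2(CPM + 1). Clopper-Pearson intervals of ratios and exact Poisson intervals of CPM, at 95%, cover counting error only and treat reads as independent. Amplified reads are not independent molecules, so the intervals may be too narrow even for counting error. No model was fitted and no p-value is given. Exon lengths came from GENCODE lifted to GRCh37, and 55538 identifiers of the table (92.2%) were matched to a symbol. Of the listed genes, GJA5, NEFL and PECAM1 were not analysed here, and results of some further genes are not reported here. Promoter windows came from RefSeq (GRCh38.p14).

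The members and the lists were chosen with earlier results of these data known. The genes named are the members, list genes at 10 CPM or more in at least 1 library, genes that overlap a member or start within 5 kb of it, and for each member at 10 CPM up to 3 nearest genes in likeness; genes outside this rule were named after their values were seen, among them genes at 0 reads.

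Alternative scalings used the plain library size, size factors of DESeq2 1.42.0, the upper quartile, TMM on each pair alone, and a library size that left out mitochondrial genes and the 10 most abundant ones. Further alternatives were pseudocounts of 0.25 and 5 CPM, thinning of every library to 4371101 reads, other limits on CPM for counts and, chosen after seeing the data, the canonical transcript length. On simulated counts that held counting error only, with no spread between cultures, and with 200 genes changed 4-fold among 10867 genes in the comparison of GFP+ libraries, 100% of the changed genes were recovered, 0 unchanged genes passed the limit and the true ratio lay inside 95.1% of the intervals, which checks the arithmetic alone. Python 3.11.15 and matplotlib 3.10.9 served for the figures.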

Additional observations from a re-analysis of the deposited data

Results flagged for a closer look

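The RA difference had opposite signs in the GFP+ and GFP- cells for 10 of 43 genes (23.3%) among the members and the genes of the HCN, T-box, paralog, pacemaker, venous pole and working myocardium lists that reached 10 CPM in at least 1 library, with both 95% intervals of counting error leaving out a ratio of 1. Of all 12407 genes at 10 CPM or more in at least 1 library, 14.2% did the same. HCN2, which stayed below 10 CPM, was counted among the 10 as a member, so the shares do not rest on quite the same limit. Whether the fractions differ could not be tested, since each condition has 1 library. The RA difference in GFP+ cells minus that in GFP- cells, in log2(CPM + 1), was −2.60 for TBX3, −1.54 for HCN2, −1.48 for TBX2, −1.41 for BVES and −1.04 for NCALD, which were lower with RA in GFP+ cells and higher in GFP- cells. It was 2.46 for ALDH1A2, 1.30 for HCN4, 1.28 for SMPX, 1.04 for CACNA1H and 0.81 for GJA1, which were higher with RA in GFP+ cells and lower in GFP- cells. TBX3 and TBX2, both T-box repressors of the conduction system, were in the same set. These signs were kept under all 8 alternatives of scaling, pseudocount and depth, while the size of the BVES difference in GFP+ cells was only −0.08.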

How the results depend on the processing

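With 1 library per condition, no spread between replicates is known, no library could be left out, and the intervals cover counting error only. The GFP+ and GFP- cells of a treatment came from the same culture, which gives 1 pair per treatment, and the labels give no replicate numbers. No paired analysis was made. The CTR GFP- library limits what can be seen of HCN2 and VSNL1, which had 6 and 5 reads there. All members kept the direction of all 4 comparisons under the 8 alternatives of scaling, pseudocount and depth, except TBX3 between the RA fractions, where the difference was 0.01 and ranged from −0.03 to 0.07. The median member difference with RA in GFP+ cells was 0.14 by library size alone and 0.17 by upper quartile, and with a pseudocount of 5 CPM the number of members lower there was 1. In GFP- cells the number of members higher with RA was 1 by library size alone and 1 with a pseudocount of 5 CPM, and 4 with a limit of 1 CPM (8.69% of 18642 genes were higher then) or with none. The median in GFP- cells was 0.47 with a pseudocount of 5 CPM and 0.76 after thinning. With a pseudocount of 5 CPM the median between the RA fractions was 1.80, and that between the CTR fractions (0.68) ranged from 0.38 to 0.96 over the 8. Among the listed genes that are no members, 3 calls with RA in GFP+ cells (CACNA2D2, EPCAM and PRRX2), 3 in GFP- cells (PDPN, TBX20 and TIE1), 5 between the CTR fractions and 3 between the RA fractions fell short of 2-fold in at least 1 of the 8. Library size alone moved the median RA difference of all genes at 10 CPM or more in GFP- cells from 0.08 to −0.05, library size without mitochondrial and abundant genes moved it to −0.04, and library size alone moved the median between the CTR fractions from 0.08 to −0.02. SHOX2 (1.12), ISL1 (0.95), HCN2 (1.05) and VSNL1 (1.08) lay near the 2-fold limit in GFP- cells, and kept their side of it in 5, 6, 5 and 5 of the 8 alternatives. The causes of these shifts were not tested.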
